A study of Homo sapiens with 8 samples.

Results

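Transcript levels of 9 YAP and TAZ pathway genes were examined in RNA-seq libraries of MDA-MB-231 cells and of a ρ0 line labelled as the same cell line. The genes were YAP1, WWTR1, TEAD1, LATS2, AMOTL2, CTGF, CYR61, ANKRD1 and AXL, a set named by pathway membership. It was chosen with earlier results of these data known. All 9 were among the 23393 gene symbols of the count table and among the 15262 that passed the expression filter and were tested. MDA-MB-231 is an established human triple-negative breast cancer line that makes little argininosuccinate synthase, so it depends on arginine from the medium. There were 4 groups of 2 libraries, namely parental cells in full medium (parental control), parental cells starved of arginine for 48 h, ρ0 cells in full medium (ρ0 control) and ρ0 cells starved of arginine for 48 h. The sample labels describe starvation as arginine deiminase (ADI), which breaks down arginine, at 0.3 µg/mL in full growth medium, whereas the study's methods speak of arginine-starved medium. The ρ0 cells, a mitochondria-depleted derivative, came from 1 line, numbered 27 in the labels. The study's methods keep them in medium with pyruvate, uridine and ethidium bromide, while the labels give the same growth medium for all samples. Mitochondrial depletion, derivation and medium therefore cannot be told apart in any comparison between the lines, and the depletion was not checked here. Library totals ran from 25259503 to 31022155 counts.

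YAP1 (YAP) and WWTR1 (TAZ) are transcriptional coactivators that bind DNA through TEAD factors. The Hippo kinases, with LATS1 and LATS2 as the last step, phosphorylate both proteins and keep them out of the nucleus. The pathway responds to cell density, matrix stiffness, the actin cytoskeleton and nutrient state, and YAP and TAZ activity is high in many basal-type breast cancer cells. CTGF, CYR61 and ANKRD1 are the targets most often used as readouts, while AXL, AMOTL2 and LATS2 are further targets. Much of YAP and TAZ control acts on the proteins, which RNA levels do not show.

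The labelled cell line was first compared with its markers. VIM, CD44, ZEB1 and MSN, markers of the mesenchymal state of MDA-MB-231, were above 1 CPM (counts scaled to the normalized library size) in every library. Together they summed to 3597 and 3655 CPM in parental control, 1677 and 1667 in starved parental, 5363 and 6212 in ρ0 control and 4389 and 4177 in starved ρ0 libraries. In starved parental libraries VIM, CD44 and MSN were lower than in parental controls (VIM at 540 and 522 against 1697 and 1786 CPM), while ZEB1 was higher (201 and 208 against 97.9 and 95.7 CPM). Of the hormone receptors that triple-negative cells lack, ESR1 had 0 to 6 counts per library and PGR 0 to 1. CDH1, which encodes E-cadherin, had 0 to 2 counts in the parental libraries but 457 and 440 in the ρ0 control libraries, and 141 and 104 in the starved ρ0 libraries. EPCAM, another epithelial marker, held 684 and 697 counts in ρ0 control cells against 14 and 15 in parental control cells. FOXA1 went the other way, with 212 to 277 counts in the parental libraries and 1 to 4 in the ρ0 libraries. The 8 luminal and epithelial markers summed to 371 and 386 CPM in parental control, 298 and 303 in starved parental, 1079 and 1269 in ρ0 control and 454 and 444 in starved ρ0 libraries. KRT8 was the most abundant of them in all control libraries and KRT18 in all starved libraries. The ρ0 line thus differed from parental cells in epithelial markers, and the part of this in the line differences given here was not tested. That both lines are of 1 origin rests on the labels and the study's methods and was not checked here, and each value of ρ0 against parental cells carries that limit. CD14, a monocyte marker, was at 3.19 and 2.48 CPM in ρ0 control and 1.01 and 1.62 in starved ρ0 libraries, against 0.139 to 0.390 in the parental libraries. The 6 fibroblast and endothelial markers summed to between 8.42 and 34.1 CPM, with COL1A1 the most abundant in each library.

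The ρ0 control libraries differed from each other far more than the other replicate pairs. The biological coefficient of variation between them was 25.1%, against 5.18% for parental control, 2.25% for starved parental and 1.84% for starved ρ0 libraries. All 4 pairs differed by more than sampling noise. Nothing in the labels says that the 2 libraries of a group came from separate cultures, so p-values measure only the spread between these libraries. All 8 libraries entered a shared fit (edgeR's quasi-likelihood test), so the wide ρ0 control pair also widened the errors in parental cells. In turn the tighter pairs narrowed the errors of comparisons that use the ρ0 control pair. For AMOTL2 the standard error of the starvation response was 0.19 in either line, though its ρ0 controls were at 225 and 365 CPM. Fitted alone, the ρ0 libraries gave 3127 starvation-responsive genes at an adjusted p under 0.05, against 6308 in the shared fit. That smaller fit also had fewer libraries.

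In parental cells, arginine starvation raised ANKRD1 2.89-fold and TEAD1 2.04-fold, raised LATS2, CYR61 and YAP1 by smaller amounts, and lowered WWTR1 and CTGF. Changes are log2 fold changes with their standard error (SE). A gene was called when its Benjamini-Hochberg adjusted p over all tested genes was under 0.05. By this rule 5 of 9 genes rose and 2 fell, while 30.4% of all tested genes rose and 35.5% fell. With libraries scaled by total counts alone, 3 rose and 2 fell, beside 24.7% and 41% of all tested genes under that scaling. The median log2 fold change of the 9 genes was 0.34, beside -0.07 over all tested genes. In ρ0 cells, 3 of 9 rose (YAP1, TEAD1 and CYR61) and 1 fell (CTGF), against 19.2% and 22.1% of all tested genes, and the medians were 0.07 and -0.02. With total counts alone, 1 rose and 1 fell, beside 15.8% and 25.6%.

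The test of the difference between the 2 responses, ρ0 minus parental, found ANKRD1, TEAD1 and LATS2 lower. With all libraries, no member was called with a higher response in ρ0 cells by edgeR, DESeq2 or limma-voom. By edgeR 0 passed an unadjusted p under 0.05 in that direction. Without ρ0 control replicate 1, 2 members (WWTR1 and YAP1) had a higher and 6 a lower response in ρ0 cells, beside 34.2% and 31.7% of the genes tested in that fit. Without replicate 2, 1 was higher (CYR61) and 6 were lower, beside 29.8% and 29.7%. In the fit of all libraries 21.6% had a higher and 18.8% a lower response in ρ0 cells. Between the lines in full medium, 1 of 9 was higher in ρ0 cells (AXL) and 3 were lower (CTGF, AMOTL2 and WWTR1), beside 30.5% and 31.8% of all tested genes. Between the starved lines, AXL was again higher and 5 were lower (CTGF, ANKRD1, AMOTL2, TEAD1 and LATS2), beside 32.9% and 33.5%. These comparisons share libraries with each other, so their counts are not independent.

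**Figure D1:**
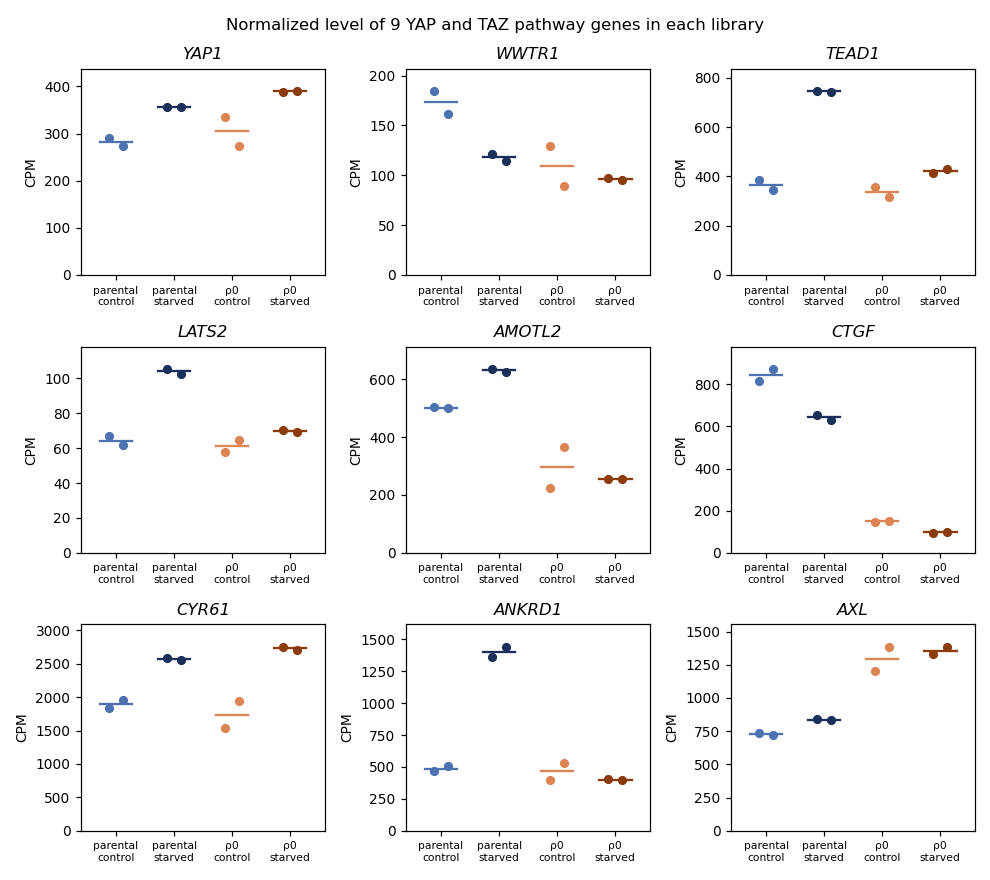
Normalized level in CPM (y axes, each from 0) of the 9 genes in each of the 8 libraries (points), with the mean of each group as a line. ANKRD1 and TEAD1 stand highest in the starved parental libraries, CTGF is low in all 4 ρ0 libraries, and the ρ0 control pair is spread for AMOTL2, WWTR1 and CYR61.

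**Figure D2:**
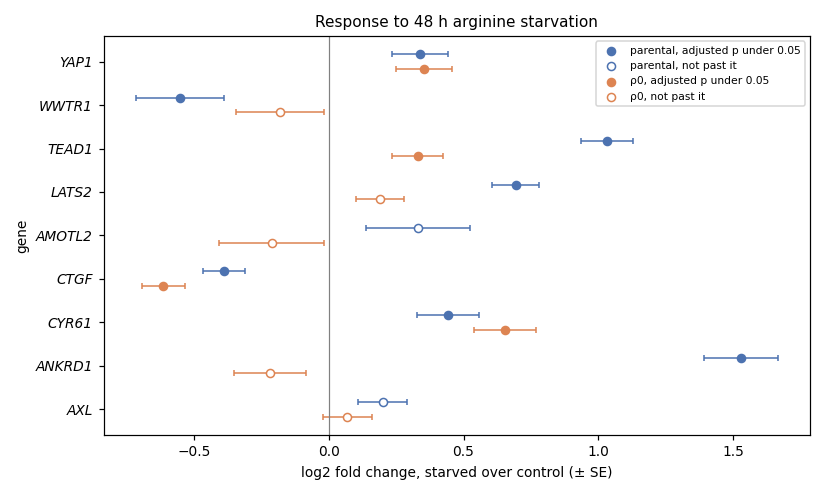
Log2 fold change of starved over control cells (x axis) for each of the 9 genes in parental and ρ0 cells, with standard errors as bars and filled points for an adjusted p under 0.05. ANKRD1 has the widest gap between the lines, at 1.53 in parental and -0.22 in ρ0 cells, while YAP1 sits at 0.34 and 0.35.

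The coactivators moved in opposite directions in parental cells. YAP1 was at 291 and 273 CPM in parental control, 357 and 356 in starved parental, 336 and 275 in ρ0 control and 389 and 391 in starved ρ0 libraries. Starved libraries of either line lay above the controls of that line without overlap, and the ρ0 controls overlapped the parental controls. The log2 fold change on starvation was 0.34 in parental cells (SE 0.10, adjusted p = 0.022) and 0.35 in ρ0 cells (SE 0.10, adjusted p = 0.031). The parental call was lost with upper quartile scaling (0.22, adjusted p = 0.094) and total counts (0.18, adjusted p = 0.15), and the ρ0 call with total counts (0.28, adjusted p = 0.059) and with the ρ0 libraries alone (0.37, adjusted p = 0.12). Over 8 leave-one-out fits the call passed in 4 for parental and in 2 for ρ0 cells. The difference between the lines' responses was 0.01 (SE 0.15, adjusted p = 0.96). Its sign changed with the library left out, from -0.15 to 0.17.

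WWTR1, which encodes TAZ, was at 185 and 162 CPM in parental control and at 121 and 115 CPM in starved parental libraries. It fell by 0.55 on the log2 scale there (SE 0.16, adjusted p = 0.018), a call held in 5 of 8 leave-one-out fits. The ρ0 control libraries held 129 and 89.0 CPM and enclosed the starved ρ0 libraries at 96.9 and 95.3 CPM. The ρ0 log2 fold change of -0.18 (SE 0.16) had an adjusted p of 0.41. In full medium WWTR1 was lower in ρ0 than in parental cells by a log2 fold change of -0.67 (SE 0.16, adjusted p = 0.0086), with no overlap between the groups. Over the leave-one-out fits it ran from -0.96 without ρ0 control replicate 1 to -0.37 without replicate 2, and without parental control replicate 1 its adjusted p was 0.064.

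TEAD1, a DNA-binding partner of both coactivators, changed more than YAP1 or WWTR1 in parental cells. It was at 386 and 344 CPM in parental control libraries and at 748 and 744 CPM in starved parental libraries, with a log2 fold change of 1.03 (SE 0.10, adjusted p = 7.4e-05). In ρ0 cells it went from 356 and 314 CPM to 413 and 429.9 CPM (log2 fold change 0.33, SE 0.10, adjusted p = 0.028). Control and starved libraries did not overlap in either line, and the parental and ρ0 controls did overlap. The ρ0 call was lost in 4 of 8 leave-one-out fits, with total counts (0.25, adjusted p = 0.061), with the ρ0 libraries alone (0.35, adjusted p = 0.10) and by limma-voom with group weights (0.33, adjusted p = 0.089). The response was smaller in ρ0 cells by -0.70 (SE 0.13, adjusted p = 0.0063), and this difference passed in all 8 leave-one-out fits at -0.82 to -0.60. The starved lines differed by -0.82, ρ0 over parental (adjusted p = 1.9e-04).

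LATS2, the kinase that phosphorylates YAP and TAZ and is itself a YAP and TAZ target, followed the same order of groups as TEAD1. Its level was 67.1 and 61.6 CPM in parental control, 106 and 103 in starved parental, 57.7 and 64.9 in ρ0 control and 70.4 and 69.4 in starved ρ0 libraries. The starved parental pair stood apart from all other libraries. The log2 fold change was 0.69 in parental cells (SE 0.09, adjusted p = 3.2e-04) and 0.19 in ρ0 cells (SE 0.09, adjusted p = 0.12). The difference of -0.50 (SE 0.12, adjusted p = 0.016) passed in 3 of 8 leave-one-out fits, with values from -0.58 to -0.44. Both fits without a ρ0 control library were among those 3.

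AMOTL2 encodes an angiomotin-like scaffold that binds YAP and holds it at junctions, and it is also a target. The parental libraries were at 504 and 501 CPM in control and 637 and 626 CPM when starved. These pairs did not overlap, but the log2 fold change of 0.33 (SE 0.19) had an adjusted p of 0.17 in the fit of all libraries, and 1.2e-06 when only the 4 parental libraries were fitted. The ρ0 control libraries, at 225 and 365 CPM, enclosed the starved ρ0 libraries, at 254 and 255 CPM. AMOTL2 was lower in ρ0 than in parental cells in full medium (log2 fold change -0.77, SE 0.19, adjusted p = 0.010) and under starvation (-1.31, SE 0.20, adjusted p = 7.2e-04). The full-medium value was -1.11 without ρ0 control replicate 2 and -0.46 without replicate 1, and its adjusted p was 0.053 without parental control replicate 1.

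Of the secreted targets, CTGF and CYR61 responded in opposite directions in both lines. Both encode matricellular CCN proteins that bind integrins. CTGF was at 813 and 874 CPM in parental control libraries and at 656 and 631 CPM in starved parental libraries. In ρ0 cells it was at 146 and 152 CPM in control and 95.3 and 99.4 CPM in starved libraries, so that no group overlapped another. CTGF was 5.66-fold lower in ρ0 than in parental cells in full medium (log2 fold change -2.50, SE 0.08, adjusted p = 9.6e-07) and 6.61-fold lower under starvation (-2.72, SE 0.08, adjusted p = 6.5e-07). Its full-medium difference lay between -2.56 and -2.45 over the 8 leave-one-out fits. On starvation it fell, with a log2 value of -0.39 in parental cells (SE 0.08, adjusted p = 0.0030) and of -0.61 in ρ0 cells (SE 0.08, adjusted p = 0.0011). The difference between these responses, -0.22 (SE 0.11), did not pass (adjusted p = 0.15).

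CYR61 was the most abundant of the 9 genes in CPM and also per kilobase of transcript. It rose from 1833 and 1953 CPM in parental control libraries to 2582 and 2560.2 CPM in starved parental libraries (log2 fold change 0.44, SE 0.12, adjusted p = 0.011). In ρ0 cells the rise was from 1542 and 1936 CPM to 2759 and 2709.8 CPM (0.65, SE 0.12, adjusted p = 0.0039). The starved libraries of both lines lay above all control libraries, and the control groups of the lines overlapped. With total counts alone the parental change was 0.28 (adjusted p = 0.074), and it passed in 5 of 8 leave-one-out fits. CYR61 did not differ significantly between the lines in full medium (-0.12, SE 0.12, adjusted p = 0.38, but -0.24 and past the threshold without ρ0 control replicate 2) or when starved (0.09, SE 0.12, adjusted p = 0.52). Its starved groups did not overlap, and that comparison had an adjusted p of 1.2e-04 when only these 4 libraries were fitted.

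ANKRD1 encodes an ankyrin-repeat protein of the nucleus and sarcomere that is a direct YAP target. It was at 468 and 505 CPM in parental control libraries and at 1366 and 1445 CPM in starved parental libraries, a log2 fold change of 1.53 (SE 0.14, adjusted p = 6.2e-05). The ρ0 control libraries held 399.7 and 535 CPM, and the starved ρ0 libraries 402 and 401 CPM lay between them. In ρ0 cells the log2 fold change was -0.22 (SE 0.13, adjusted p = 0.23). The response was lower in ρ0 cells by -1.75 (SE 0.19, adjusted p = 8.3e-04), with values from -1.94 to -1.55 over the leave-one-out fits, all past the threshold. The lines overlapped in full medium (-0.06, SE 0.13, adjusted p = 0.72), where the value was 0.14 without ρ0 control replicate 1 and -0.23 without replicate 2, both past the threshold. Under starvation ANKRD1 was 3.50-fold lower in ρ0 cells (-1.81, SE 0.14, adjusted p = 2.5e-05).

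AXL, a receptor tyrosine kinase for GAS6, differed by line and little by arginine. The parental libraries were at 735 and 720.5 CPM in control and 839.9 and 833 CPM when starved, while the ρ0 libraries were at 1199.5 and 1387 CPM in control and 1330.1 and 1381 CPM when starved. Every ρ0 library was above every parental library. AXL was higher in ρ0 cells in full medium by 0.83 (SE 0.09, adjusted p = 1.7e-04) and under starvation by 0.70 (SE 0.09, adjusted p = 3.6e-04) on the log2 scale. The parental starvation change of 0.20 (SE 0.09) did not pass in the fit of all libraries (adjusted p = 0.087) and had an adjusted p of 8.2e-05 with the 4 parental libraries alone. The ρ0 change was 0.07 (SE 0.09, adjusted p = 0.59).

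**Figure D3:**
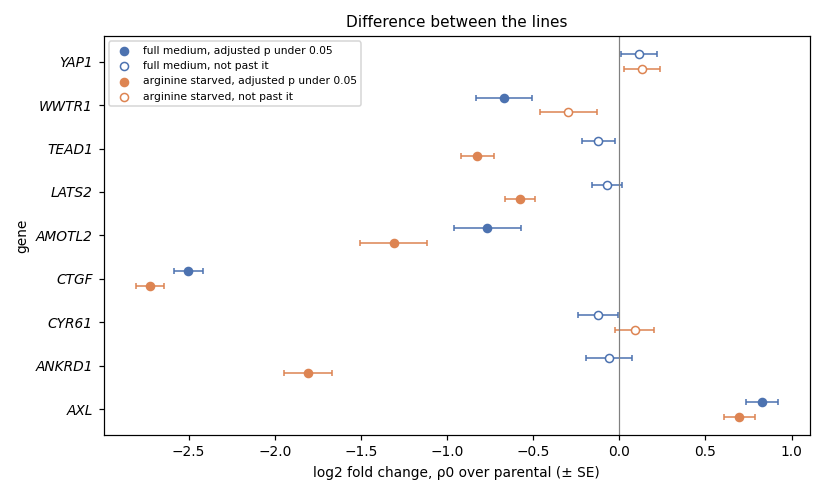
Log2 fold change of ρ0 over parental cells (x axis) in full medium and under arginine starvation for each of the 9 genes, with standard errors as bars and filled points for an adjusted p under 0.05. CTGF is lowest in both media at -2.50 and -2.72, ANKRD1 moves from -0.06 to -1.81, and AXL is higher in both.

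Levels of different genes were compared per kilobase, with the longest protein-coding GENCODE transcript as the length. In parental control libraries CYR61 was at 827 CPM per kilobase (SD 37.1, n = 2), followed by CTGF at 361 (SD 18.5), ANKRD1 at 246 (SD 13.1), AXL at 154 (SD 2.19) and AMOTL2 at 111 (SD 0.565). The coactivators and their partner were lower, with YAP1 at 52.2 (SD 2.39), TEAD1 at 43.0 (SD 3.51) and WWTR1 at 34.4 (SD 3.26) CPM per kilobase, and LATS2 was lowest at 11.7 (SD 0.703). In ρ0 control libraries CTGF, at 63.7 CPM per kilobase (SD 1.63), was under AXL at 273 (SD 28.1) and ANKRD1 at 236 (SD 48.2). The length sets these values, and the protein-coding transcripts annotated for YAP1 run from 1365 to 5398 bases, those for TEAD1 from 477 to 8477 and those for WWTR1 from 503 to 5030.

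CTGF and ANKRD1 moved most, one by line and the other by starvation in parental cells, so their promoters are shown. RefSeq promoter windows (GRCh38.p14, 250 bases before to 50 after the annotated start) were matched for 7 of 9 genes, in 10 windows, with CTGF listed as CCN2. The core of the TEAD binding motif, GGAATG on either strand, was found in 6 of 10 windows, beside 14% of all 35116 windows in the table. WWTR1, AMOTL2 and AXL had 2 windows each. Known targets of YAP and TAZ are among these genes, so this share was not independent of how they were picked. CTGF held 3 matches, at -169 to -164, -104 to -99 and -95 to -90 from the start site, which is counted as 0, and all were on the gene's strand. ANKRD1 held 2, at -220 to -215 and -128 to -123. The AP-1 motif TGANTCA was found once, in ANKRD1 at -195 to -189 and without overlap with GGAATG, beside 7.71% of all windows. The CArG box of SRF was found in 0 of the 10 windows and in 1.29% of all. The sequences are given 5′ to 3′ on the gene's strand with GGAATG in capitals. The CTGF window is chr6:131951323-131951622 on the minus strand and the ANKRD1 window chr10:90921038-90921337 on the minus strand.
CTGF: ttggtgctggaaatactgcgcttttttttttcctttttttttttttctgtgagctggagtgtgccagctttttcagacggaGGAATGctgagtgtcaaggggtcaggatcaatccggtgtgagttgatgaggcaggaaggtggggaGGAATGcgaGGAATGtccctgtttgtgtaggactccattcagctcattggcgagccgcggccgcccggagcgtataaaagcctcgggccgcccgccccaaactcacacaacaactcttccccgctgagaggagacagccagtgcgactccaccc
ANKRD1: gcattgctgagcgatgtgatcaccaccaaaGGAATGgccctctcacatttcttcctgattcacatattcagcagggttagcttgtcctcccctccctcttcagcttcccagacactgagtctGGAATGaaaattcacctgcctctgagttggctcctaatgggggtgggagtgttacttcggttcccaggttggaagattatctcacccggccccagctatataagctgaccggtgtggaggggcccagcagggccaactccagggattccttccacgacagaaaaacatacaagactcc

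The wider pathway was given by lists of Hippo kinases and scaffolds, of TEAD and VGLL factors, and of 22 YAP and TAZ targets, of which 6 are among the 9 genes. With a list of SRF targets added, 56 of 58 distinct genes were tested, and in parental cells 20 rose and 20 fell on starvation, beside 30.4% and 35.5% of all tested genes. With total counts alone 15 rose and 24 fell, beside 24.7% and 41%. In ρ0 cells 12 rose and 14 fell, beside 19.2% and 22.1% of all tested genes, and with total counts alone 9 rose and 16 fell, beside 15.8% and 25.6%.

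Among the 18 Hippo kinases and scaffolds, 6 rose and 4 fell in parental cells, with a median log2 fold change of 0.12, beside 30.4% and 35.5% of all tested genes. The kinase LATS1 rose like LATS2, from 52.1 and 40.7 CPM to 114 and 111 CPM (log2 fold change 1.28, SE 0.15, adjusted p = 1.9e-04). The LATS cofactor MOB1B rose by 0.79 and the upstream kinase STK4 (MST1) by 0.95, while its paralog STK3 (MST2) fell by 0.55 on the same scale. FRMD6, an upstream FERM-domain protein, rose by 1.36, and the scaffold WWC1 (KIBRA) fell by 1.40. In ρ0 cells 4 rose (FRMD6 at 0.99, STK4 at 0.65, LATS1 at 0.58 and MOB1B at 0.32) and 4 fell, the largest fall being that of WWC1 at -0.67, beside 19.2% and 22.1% of all tested genes. The median was 0.04, and it was -0.03 without ρ0 control replicate 1 and 0.21 without replicate 2. The difference between the responses passed for LATS1 (-0.70, adjusted p = 0.030), MOB1B (-0.47) and LATS2, which were lower in ρ0 cells, and for STK3 (0.60) and WWC1 (0.74), which were higher, beside 18.8% of all tested genes lower and 21.6% higher. Of 8 leave-one-out fits, these passed in 3 for LATS1, 3 for MOB1B, 2 for STK3 and 4 for WWC1, both fits without a ρ0 control library among them. The ρ0 rises of LATS1 and MOB1B passed in 6 and 4, and the ρ0 fall of WWC1 in 7.

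Between the lines 5 of these 18 genes were higher and 7 lower in ρ0 cells in full medium (30.5% and 31.8% of all tested genes), and 4 were higher and 8 lower under starvation (32.9% and 33.5%), so that the total share called was near that of all tested genes. AMOT, an angiomotin that binds YAP, had 800 and 619 counts in parental control and 695 and 810 in starved parental libraries, against 1 and 5 in ρ0 control and 0 and 4 in starved ρ0 libraries. Its normalized level in parental control cells was 228 times that in ρ0 control cells (95% interval from 104.5 to 622.5, exact binomial, which covers counting error only). Between the starved lines the same ratio was 378.1 (147.4 to 1390). Both ratios pool ρ0 libraries with few and uneven counts, so their size depends on which ρ0 library is used. NF2, which encodes the upstream activator merlin, was lower in ρ0 cells by -1.96 in full medium (SE 0.14, adjusted p = 2.3e-05) and -1.67 under starvation. The kinase TAOK3 was lower by -1.19 and -1.21, and MAP4K4, another kinase that acts on LATS, was higher by 0.94 and 1.57. The ρ0 control libraries differed for MAP4K4, at 476 and 222 CPM, and its full-medium value was 0.28 without replicate 1 and 1.44 without replicate 2, with the call lost without either parental control library.

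Of the TEAD and VGLL factors, 6 of 8 were tested, and VGLL1 (0 counts) and VGLL2 (0 to 2 counts per library) were not. In parental cells TEAD1, TEAD3, TEAD4 and VGLL3 rose and TEAD2 and VGLL4, a TEAD-bound repressor of YAP, fell, beside 30.4% and 35.5% of all tested genes. VGLL3 rose by 1.31 (SE 0.25, adjusted p = 0.0024) and TEAD4 by 1.03 (SE 0.34, adjusted p = 0.031). TEAD2 went from 15.0 and 14.6 CPM to 9.86 and 9.36 CPM in parental cells and from 16.9 and 15.9 to 23.8 and 24.8 CPM in ρ0 cells. The groups did not overlap in either line, and its responses of -0.63 and 0.57 differed by 1.19 (SE 0.14, adjusted p = 0.0012). TEAD1 and TEAD2 were the 2 factors called in ρ0 cells, both as rises, beside 19.2% of all tested genes, and neither was called there by limma-voom with group weights. In full medium TEAD3, TEAD4 and VGLL3 were lower in ρ0 cells, by -1.05, -0.95 and -1.28, beside 31.8% of all tested genes. The ρ0 control libraries differed for TEAD4, at 13.4 and 33.8 CPM, and for VGLL3, at 19.6 and 36.3 CPM. The full-medium value of TEAD4 was -0.43 without ρ0 control replicate 1 and -1.72 without replicate 2, and it passed in those 2 of 8 leave-one-out fits alone. The parental calls passed in 2 of 8 such fits for TEAD3, 4 for TEAD4 and 5 for VGLL4.

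All 22 target genes were tested. In parental cells 8 rose, 8 fell and 6 were not called, with a median log2 fold change of 0.14, and without the 6 genes described above 5 rose and 7 fell with a median of -0.31. Of all tested genes 30.4% rose and 35.5% fell. In ρ0 cells 5 rose, 4 fell and 13 were not called, with a median of -0.08, beside 19.2% and 22.1% of all tested genes. Without ρ0 control replicate 1, 7 rose and 10 fell (median -0.09), beside 31% and 31.8% of the genes tested in that fit, and without replicate 2, 10 rose and 6 fell (median 0.13), beside 30.8% and 31.6%, so the balance in ρ0 cells turned with 1 library. GADD45A, a growth arrest gene that stress pathways also induce, rose most, from 63.9 and 67.5 CPM to 709 and 704 CPM in parental cells (log2 fold change 3.43, SE 0.20, adjusted p = 1.3e-05). In ρ0 cells GADD45A rose from 56.8 and 88.2 CPM to 345 and 319 CPM (2.19, SE 0.19, adjusted p = 2.4e-04). CCDC80, an extracellular matrix gene, fell most, from 123 and 121 CPM to 16.9 and 17.9 CPM in parental cells (-2.80, SE 0.10), and by -0.88 in ρ0 cells. Targets thus moved in both directions within each line.

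Several targets responded in 1 line more than in the other by the test of the difference. IGFBP3, which encodes an IGF-binding protein, was not called in parental cells (-0.47, adjusted p = 0.12) and rose in ρ0 cells from 121 and 223 CPM to 749.7 and 690.3 CPM (2.07, adjusted p = 8.1e-04), a difference of 2.54 (SE 0.35, adjusted p = 0.0018). F3, the coagulation starter tissue factor, rose by 1.57 in parental cells and had a change of 0.26 in ρ0 cells (adjusted p = 0.21), a difference of -1.31 (adjusted p = 0.0036). Its ρ0 change was 0.55 and past the threshold without ρ0 control replicate 2. DOCK5, a Rac exchange factor, fell by 0.90 in parental cells and had a change of 0.20 in ρ0 cells (adjusted p = 0.18), a difference of 1.10 (adjusted p = 0.0022). The difference passed in the ρ0-higher direction for 5 targets and in the ρ0-lower direction for 6, with a median of -0.18, beside 21.6% and 18.8% of all tested genes.

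In full medium 7 targets were higher and 6 lower in ρ0 cells, with a median of 0.01, beside 30.5% and 31.8% of all tested genes. That median was 0.10 without ρ0 control replicate 1 (10 higher and 7 lower, beside 37.7% and 39.5% of the genes tested in that fit) and -0.13 without replicate 2 (8 higher and 11 lower, beside 39% and 37.3%). Under starvation 11 were higher and 9 lower, with a median of 0.23, beside 32.9% and 33.5%. The largest difference upward was that of F3, from 257 and 242 CPM in parental control to 1765 and 2513 CPM in ρ0 control libraries (log2 fold change 3.10, SE 0.17, adjusted p = 6.8e-06). TGFB2 was higher by 2.42 (SE 0.17), while CTGF had the largest difference downward. Low CTGF in ρ0 cells stood beside high F3, TGFB2 and AXL in the same libraries.

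**Figure D4:**
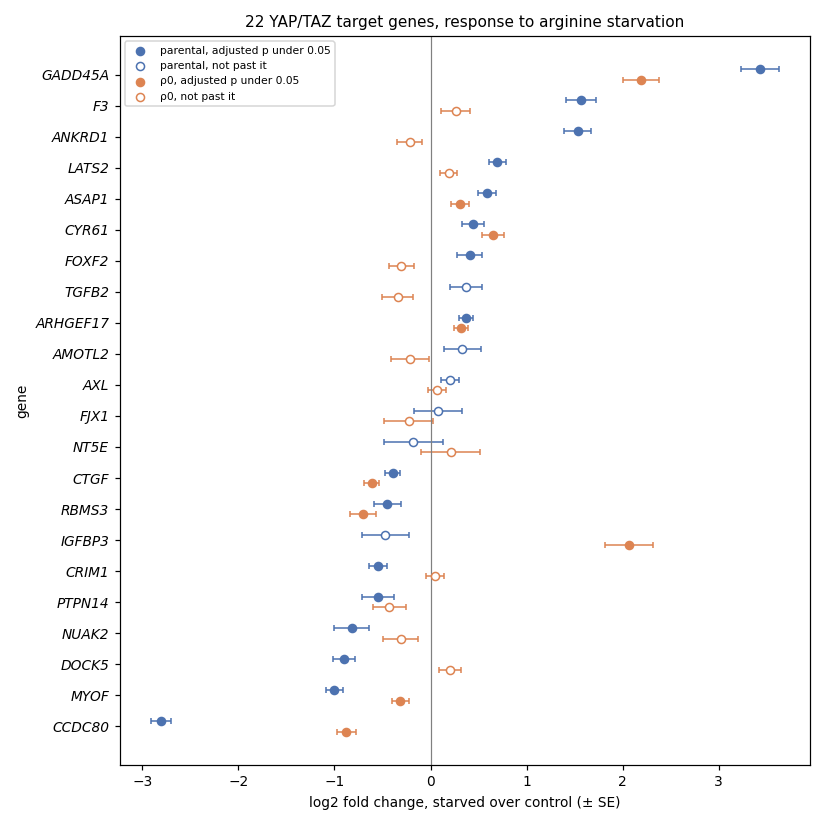
Log2 fold change of starved over control cells (x axis) for 22 YAP and TAZ target genes in parental and ρ0 cells, ordered by the parental value, with standard errors as bars and filled points for an adjusted p under 0.05. Parental values run from -2.80 (CCDC80) to 3.43 (GADD45A), and IGFBP3 is the gene whose ρ0 value of 2.07 stands farthest above its parental value of -0.47.

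Several ρ0 values rested on which ρ0 control library was used. Without replicate 1 the ρ0 starvation response of AMOTL2 was -0.52 and without replicate 2 it was 0.19, both past the threshold in opposite directions. WWTR1 was at 0.11 and -0.41, ANKRD1 at -0.41 and 0.02 and AXL at -0.03 and 0.19 in the same order. CTGF (-0.64 and -0.58) and CYR61 (0.50 and 0.84) kept their direction and their call. Without replicate 1, 3 of 9 genes rose and 3 fell in ρ0 cells, beside 31% and 31.8% of the genes tested in that fit. Without replicate 2, 6 rose and 2 fell, beside 30.8% and 31.6%. Leaving either out removed the widest pair from the estimate of spread, and the remaining library was assumed to vary like the other groups.

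**Figure D5:**
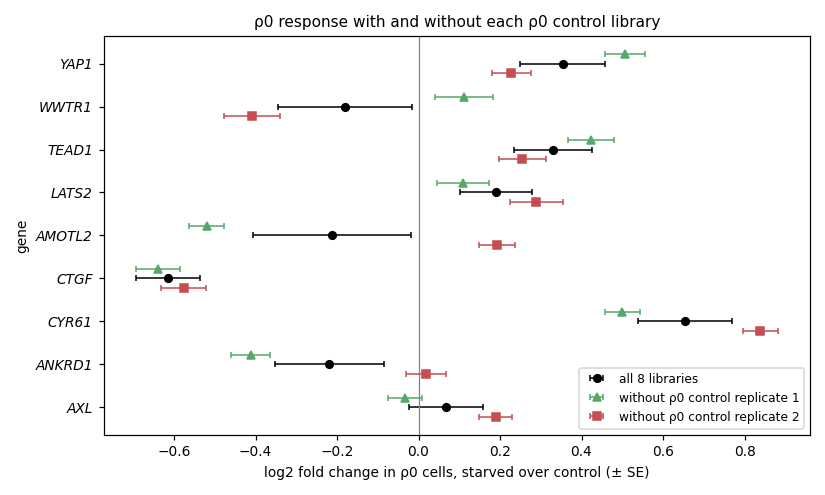
Log2 fold change of starved over control ρ0 cells (x axis) for the 9 genes with all 8 libraries and without each ρ0 control library, with standard errors as bars. CTGF, CYR61, YAP1, TEAD1 and LATS2 stay on the same side of 0, while WWTR1, AMOTL2, ANKRD1 and AXL cross it.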

How the data were processed

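RNA-seq counts of 8 libraries, 2 in each of 4 groups, were analysed. The values the authors deposited are whole-number read counts, 1 row for each gene symbol and not normalized. The submitters' processing notes name Bowtie, Partek and hg19, and the annotation and strand setting are not given in the sources used here. Without strand, a gene and an overlapping antisense gene cannot be told apart.

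The tools were edgeR 4.0.16, DESeq2 1.42.0 and limma 3.58.1 under R 4.3.3. The filter was filterByExpr over the 4 groups and the scaling TMM. CPM are counts scaled to the TMM-adjusted size of each library. The quasi-likelihood test was fitted across all genes with 1 mean per group (4 residual degrees of freedom, prior 3.4), and the standard error was the log2 fold change over the square root of F. The study states thresholds on FPKM (an adjusted p and a log2 fold change past 1) without saying by which test they were applied to the RNA-seq values, so its fold threshold was an alternative. The step was run on simulated data in which each gene had the same spread in all groups. Such data cannot show how calls hold with the wide ρ0 control pair. Alternatives were 3 other scalings, 2 filters, DESeq2, limma-voom, a replicate block, fits to the compared groups, 2 thresholds, and fits without each library in turn. A voom fit with a weight per group was chosen after seeing the data. The members and lists were chosen with earlier results of these data known. Named genes were the 9 members, called genes of the lists, those with the largest changes first, and the 5 genes most like a member. Promoter sequences came from a RefSeq table by symbol, since the build of the files differs. The result of 1 further marker list is not reported here.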

Additional observations from a re-analysis of the deposited data

Results flagged for a closer look

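The starvation response differed between the lines for 3 of the 9 genes by the interaction test (edgeR's quasi-likelihood test, ρ0 minus parental), all lower in ρ0 cells, beside 18.8% of all tested genes lower and 21.6% higher. The total share called among the 9 was not above that of all tested genes. ANKRD1 differed by -1.75 on the log2 scale (adjusted p = 8.3e-04), with both starved parental libraries above all other libraries. TEAD1 differed by -0.70 (adjusted p = 0.0063) and LATS2 by -0.50 (adjusted p = 0.016), again with the starved parental pair above all other libraries. The part of the spread between the ρ0 control libraries in these values was not tested beyond leaving each out, which gave -1.94 and -1.55 for ANKRD1, -0.60 and -0.82 for TEAD1 and -0.58 and -0.44 for LATS2. Over all 8 leave-one-out fits the difference passed in 8 for ANKRD1 and TEAD1 and in 3 for LATS2. For LATS2 both fits without a ρ0 control library were among those 3.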

How the results depend on the processing

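Of 801 values of the 9 genes under the alternatives, 714 kept their direction and their side of the threshold, 38 newly passed it, 35 no longer passed it and 14 changed sign. The sign changes were AXL in ρ0 cells with total counts (-0.011) and, over leave-one-out fits, the ρ0 responses of WWTR1 (-0.41 to 0.11), ANKRD1 (-0.41 to 0.019), AMOTL2 (-0.52 to 0.19) and AXL (-0.033 to 0.19), the YAP1 difference of responses (-0.15 to 0.17) and the full-medium line differences of YAP1 (-0.038 to 0.31), TEAD1 (-0.21 to 0.019), LATS2 (-0.14 to 0.011), CYR61 (-0.24 to 0.033) and ANKRD1 (-0.23 to 0.14). In the order parental response, ρ0 response, difference of responses, full-medium and starved line difference, the calls of the 9 genes were 7, 4, 3, 4 and 6, those of the listed genes 40, 26, 24, 35 and 45, and those of all tested genes 10060, 6308, 6167, 9509 and 10144. With a log2 fold change past 1 required, they were 2, 0, 1, 1 and 3 members, 15, 4, 8, 17 and 27 listed genes, and (the ρ0 member changes reaching at most 0.65 in size) 5320, 1894, 3037, 4718 and 5415 of all genes. At an adjusted p under 0.01, 4 members were called in parental and 2 in ρ0 cells, 12 listed genes had a difference of responses, and 3700 of all genes were called in ρ0 cells and 3249 for the difference. In ρ0 cells, total counts gave 2 members, the fit to ρ0 libraries alone 2 members, 15 listed and 3127 of all genes, and limma-voom with group weights 3993 of all genes. Leaving out 1 library gave 4 to 9, 2 to 8, 2 to 8, 2 to 7 and 6 to 9 members, 32 to 55, 14 to 43, 12 to 45, 31 to 46 and 38 to 54 listed genes, and 8048 to 12480, 3169 to 9784, 3513 to 10277, 7456 to 12043 and 8107 to 12504 of all genes, the highest value of each coming without 1 of the ρ0 control libraries. The cause was not tested beyond the construction of each fit. Upper quartile scaling moved the median of all genes in the parental response from -0.07 to -0.19 and total counts to -0.23. Replicate numbers did not pair the libraries (correlations of deviations between -0.053 and 0.0386), and with the replicate block the calls of the 9 genes stayed at 7, 4, 3, 4 and 6. The fit to the compared groups gave no value for the difference of responses, which needs all 4.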

Other observations

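Targets of SRF and its cofactor MRTF, which several YAP and TAZ targets share, were given by 13 genes, all tested. In parental cells 3 rose and 7 fell on starvation (median log2 fold change -0.61), and in ρ0 cells 1 rose and 6 fell (median -0.46), by edgeR's quasi-likelihood test. Of all tested genes 30.4% rose and 35.5% fell in parental cells, and 19.2% and 22.1% in ρ0 cells. SRF itself rose by 1.31 in parental cells (adjusted p = 1.1e-04) and by 0.60 in ρ0 cells (adjusted p = 0.0099), the latter past the threshold in 6 of 8 leave-one-out fits at 0.40 to 0.84. The cytoskeletal genes ACTG1 (-1.08 and -1.24) and MYL9, a myosin light chain (-1.85 and -1.97), and the LIM-domain gene FHL2 (-0.69 and -0.93) fell in both lines. TPM2, a tropomyosin, fell by 2.20 in parental cells and had a change of 0.09 in ρ0 cells (adjusted p = 0.85), a difference of 2.29 (adjusted p = 0.0053). Its ρ0 change was 0.71 without ρ0 control replicate 1 and -0.33 without replicate 2, both past the threshold. In full medium 5 were higher and 4 lower in ρ0 cells (30.5% and 31.8% of all tested genes), with CNN1 (calponin) at -3.17 and TPM2 at -1.96 the largest downward, and FLNA (filamin A) at 1.89 and ACTG1 at 1.84 the largest upward. CNN1 rested on few counts, 42 and 35 in parental control and 6 and 2 in ρ0 control libraries, and its value was -4.18 without ρ0 control replicate 1 and -2.49 without replicate 2.

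Among 9950 other genes with a mean of at least 10 CPM, those most like CTGF in log2 CPM over the 8 libraries were KISS1, LRP4, ORAI1, IFITM2 and TLR4, with Pearson coefficients from 0.9947 to 0.9986. For ANKRD1 they were CD274, PPM1D, DENR, API5 and PIPSL (0.9935 to 0.996), and the count of PIPSL, a processed copy of other genes, is uncertain. For CYR61 they were SNHG5, RPP38, CHAC1, EPB41L4A-AS1 and QSOX2 (0.9865 to 0.9945), and for YAP1 NCOA3, ZBTB1, SS18, SEC61A2 and FNDC3B (0.9867 to 0.9921). The 8 libraries fall into 4 groups, so these values follow differences between groups.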
